A study of Mus musculus with 9 samples.

Results

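The metalloproteases and their tissue inhibitors were examined in mouse lung RNA as 1 set of genes. The set took every symbol of the deposited count table that starts with Mmp, Timp, Adam or Adamts followed by a digit and that had 10 or more counts in at least 3 of the 9 libraries. Of 79 such symbols 53 reached this minimum, out of 21983 genes in the table: 16 matrix metalloproteases (MMPs), 4 tissue inhibitors of metalloproteases (TIMPs), 16 ADAMs and 17 ADAMTSs. The lungs came from BALB/c mice, an inbred strain, in 3 groups of 3 libraries. Control mice were normal and received saline by mouth from day 14. Asthma mice carried a model that the series title calls chronic asthma and received the same saline. BSYQF mice carried that model and received Bu-Shen-Yi-Qi formula (a mixture of Chinese medicinal herbs) by mouth from day 14 at 20 g of raw herbs per kg, for 6 weeks per the labels. The sources used here do not give how the model was induced or the age of the mice. Nothing in the labels says that the replicates of a group came from separate mice, and the spread behind each p-value may be technical.

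MMPs are zinc-dependent enzymes that cut collagens, elastin, proteoglycans and other matrix proteins outside the cell, either secreted or anchored in the membrane. ADAMs are membrane proteins, many of which release cytokines, growth factors and receptors from the cell surface, and ADAMTSs are secreted relatives that carry thrombospondin repeats and act on proteoglycans, procollagens and microfibrils. TIMPs bind the active site of these enzymes, and in asthmatic airways the balance of enzyme and inhibitor is studied for its part in matrix remodelling. The values below are RNA levels and give neither protein amount nor enzyme activity.

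Total counts per library were 16286385 to 22819199, so that 3 counts corresponded to 0.134 to 0.202 CPM (counts scaled to a common library size, after TMM, a correction for library makeup). On the first principal component of all tested genes, which held 51.6% of the variance, the control libraries lay at −51.9, −56.7 and −43.2. Asthma replicates 1 and 2 had scores of 51.9 and 76.0 and replicate 3 a score of 1.77, while the BSYQF scores were 40.5, 1.20 and −19.6 for replicates 1, 2 and 3. On this axis the odd libraries were replicate 3 of the asthma group and replicate 1 of the BSYQF group. For members named below, calls that change without either library are given beside the main value. Other members whose calls change enter the counts alone. Lung tissue was present in every library, with 238614 to 429543 counts of the surfactant gene Sftpc, whereas Sftpb, another surfactant gene, had 7 to 24 counts. A low count in this table therefore does not show that a gene was silent.

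At the count minimum, Adamts13 and Mmp16 lay just inside with a third-highest count of 11, and Adam4 just outside with 9. Of the 26 symbols below the minimum, 14 had 0 counts in every library, among them the collagenase genes Mmp1a and Mmp1b, the enamel protease Mmp20 and the sperm protein gene Adam2. The epithelial matrilysin Mmp7 reached at most 8 counts in a library and the stromelysin Mmp10 at most 2. All 53 members passed the expression filter of the test and 4 stayed under a mean of 1 CPM in every group.

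A change is given as a log2 fold change ± SE and counts as called where the adjusted p (Benjamini-Hochberg) was under 0.05 in edgeR's quasi-likelihood test of 14739 genes. In asthma against control, the inhibitor Timp1, the enzymes Mmp12, Mmp14, Mmp19, Adam8 and Adam15 and the aggrecanase Adamts4 rose, and Adamts10 fell. The increases ranged from 1.48-fold for Adam15 to 116-fold for Mmp12, and Timp1 was 75.1-fold higher. These 8 of 53 members are 15.1%, beside 12.7% of all genes tested, so the share called was close to the background. At an unadjusted p under 0.05 there were 18 members, 34%, beside 34.1% of all genes. Higher calls took 7 members, where 8.23% of all genes were called higher, and lower calls took 1, where 4.45% were called lower. The median log2 fold change over the members was −0.17 beside 0.02 over all genes, with 22 members above and 31 below 0. By family, 3 of 16 MMPs, 1 of 4 TIMPs and 2 of 16 ADAMs rose, while among 17 ADAMTSs 1 rose and 1 fell.

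**Figure D1:**
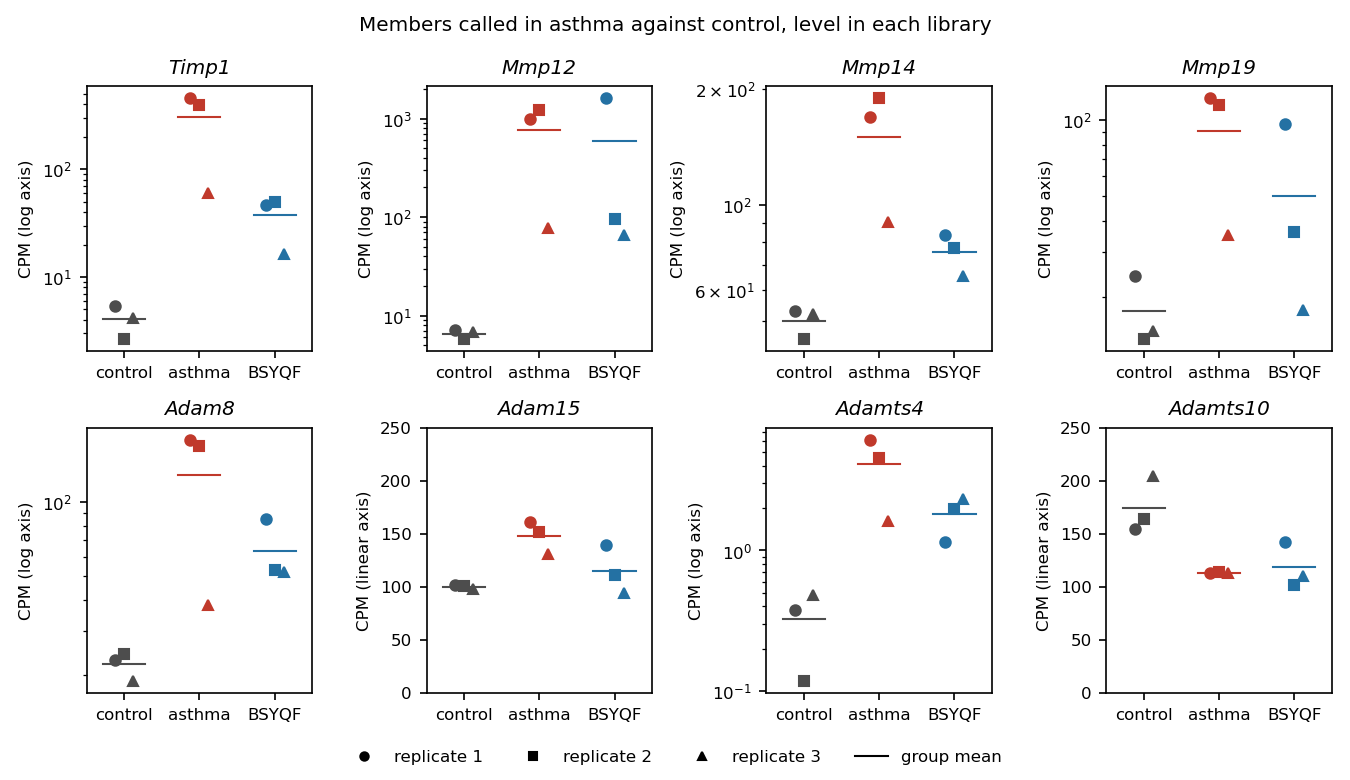
Level of each of the 8 called members in CPM by group, with 1 point per library, shaped by replicate number, and a line at the group mean of 3 libraries; the vertical axis is logarithmic except for Adam15 and Adamts10, where it is linear from 0. Asthma replicate 3 (red triangle) is the lowest asthma library for all 7 members that rose.

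Among the inhibitors Timp1 rose and the other TIMPs did not pass the test. Timp1 (chromosome X, 20870166 to 20874735, plus strand, inside an intron of Syn1 on the opposite strand, GRCm38/mm10) encodes a secreted inhibitor of most MMPs that is induced by inflammatory cytokines. Its levels were 5.35, 2.63 and 4.15 CPM in the control libraries, 459, 396 and 60.7 CPM in the asthma libraries and 46.9, 49.4 and 16.4 CPM in the BSYQF libraries. Every asthma and BSYQF library exceeded every control library, and asthma replicate 3 lay far below the other asthma libraries. The log2 fold change in asthma against control was 6.23 ± 0.82 (SE, n = 3 per group), 95% interval 4.39 to 8.07 at adjusted p = 0.00715.

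Timp2 (chromosome 11, 118301069 to 118355740, minus strand) encodes an inhibitor that also takes part in activating pro-MMP2 at the cell surface. Its levels were 809, 770.1 and 739 CPM in the control libraries, 503, 375 and 634 CPM in the asthma libraries and 552, 638 and 599 CPM in the BSYQF libraries. The asthma and control libraries did not overlap, with asthma lower, but the difference missed the threshold (log2 fold change −0.62 ± 0.20 at adjusted p = 0.0592). Timp3 (chromosome 10, 86300372 to 86349506, plus strand), the inhibitor bound to the extracellular matrix, which also acts on ADAMs and ADAMTSs, had 1745, 1307 and 1085 CPM in the control libraries, 669, 547 and 1071 CPM in the asthma libraries and 661, 984 and 897 CPM in the BSYQF libraries. Asthma replicate 3, at 1071 CPM, was close to control replicate 3, and the log2 fold change was −0.85 ± 0.28 at adjusted p = 0.0648. About 21.3% of the exon length of Timp3 overlaps exons of Syn3, and the sources used here do not give strand use in counting. Without asthma replicate 3 both were called lower (adjusted p = 0.00722 for Timp2 and 0.00726 for Timp3), as they were without BSYQF replicate 1 (0.0493 and 0.0485) and by DESeq2 (0.00956 and 0.0122). Timp4 was low throughout, from 3.51 to 9.01 CPM, with a log2 fold change of 0.49 ± 0.35 at adjusted p = 0.337.

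Levels of different genes were compared as CPM per kilobase of the merged exons of a gene. Merged exons join those of all annotated transcripts, so a gene whose main transcript is much shorter gets too low a value. Their length was 7237 bases for Mmp12, 1801 for Mmp3 and 888 for Timp1. Ranks of genes, shares of a sum and ratios between genes depend on these lengths. On this scale Timp2 (198 ± 8.99, SD, n = 3) and Timp3 (169 ± 41.2) were the most abundant members in control lung, and their libraries overlapped. Timp1 ranked 24 of 53 in control lung by mean, 1 in asthma and 4 in BSYQF lung. Timp1 made up 1.40%, 0.820% and 1.42% of the summed TIMP level in the control libraries, and 70.9%, 73.0% and 18.8% in the asthma libraries. In the BSYQF libraries its share was 19.1%, 16.3% and 6.54%. The other 3 TIMPs together came to 324 to 423 CPM per kilobase in control, 165 to 295 in asthma and 224 to 286 in BSYQF libraries.

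Summed over all 16 MMPs, the level per kilobase was 142, 137 and 131 in control, 302, 321 and 163 in asthma, and 377, 167 and 170 in BSYQF libraries. Without Mmp12 the MMP sum was 130 to 141 in control, 151.9 to 165 in asthma and 153 to 161 in BSYQF libraries. Thus the wide spread of the MMP sum among asthma and BSYQF libraries was carried by Mmp12. The ratio of summed TIMP to summed MMP level was 3.02, 2.64 and 2.51 in control, 2.41, 1.90 and 2.24 in asthma and 0.735, 2.05 and 1.67 in BSYQF libraries. No asthma or BSYQF library reached the lowest control ratio; these ratios are descriptions of RNA levels without a test.

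**Figure D2:**
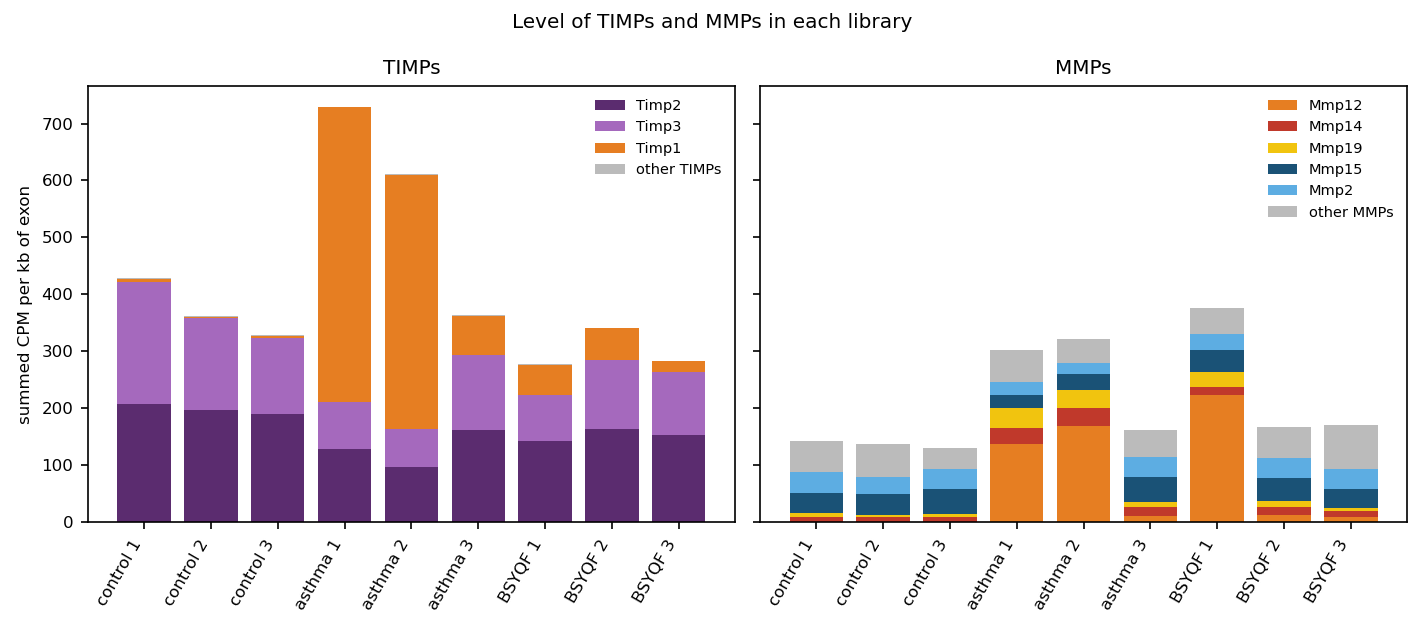
Summed levels of TIMPs and of MMPs in each of the 9 libraries, in CPM per kilobase of exon length, stacked by gene; each bar is 1 library and starts at 0. Timp1 fills most of the TIMP bar in asthma replicates 1 and 2, and Mmp12 most of the MMP bar in asthma replicate 2 and BSYQF replicate 1.

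The largest increase among the members was that of Mmp12, which encodes macrophage elastase, an enzyme that degrades elastin and is made mainly by macrophages. Mmp12 levels were 7.08, 5.73 and 6.81 CPM in the control libraries, 992, 1217 and 77.5 CPM in the asthma libraries and 1615, 96.4 and 65.7 CPM in the BSYQF libraries. Every asthma and BSYQF library was far above all controls, yet within each of these groups the highest and lowest libraries differed by over an order of magnitude. The log2 fold change in asthma against control was 6.86 ± 1.57 (SE, n = 3 per group), 95% interval 3.30 to 10.42 at adjusted p = 0.0311. The call was lost with limma voom (adjusted p = 0.0650) and without the filter on low counts (adjusted p = 0.0617).

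Mmp12 lies at 7344381 to 7369499 on the plus strand of chromosome 9, in a cluster of 10 Mmp genes spanning 427.1 kb (7272514 to 7699585). In order along the chromosome the cluster holds 5 members: Mmp13 (collagenase 3), Mmp12, Mmp3 (stromelysin 1), Mmp8 (neutrophil collagenase) and Mmp27. Mmp13 levels were 0.594, 1.70 and 1.22 CPM in the control libraries, 8.94, 12.2 and 0.986 CPM in the asthma libraries and 39.2, 2.27 and 0.833 CPM in the BSYQF libraries. The high and low libraries of Mmp13 were those of Mmp12, with asthma replicates 1 and 2 and BSYQF replicate 1 highest, while asthma replicate 3 and BSYQF replicate 3 lay within the control range. Its log2 fold change was 2.64 ± 1.39 at adjusted p = 0.209, which missed the threshold, and without BSYQF replicate 1 it was called (adjusted p = 0.0463). Mmp3 levels were 19.3, 6.79 and 7.93 CPM in the control libraries, 33.1, 21.0 and 21.9 CPM in the asthma libraries and 6.48, 17.1 and 13.9 CPM in the BSYQF libraries. All asthma libraries of Mmp3 were above all controls, but the log2 fold change of 1.16 ± 0.43 at adjusted p = 0.0886 was not called. It was called by DESeq2 (adjusted p = 0.0398) and without control replicate 1 (1.78, adjusted p = 0.0458).

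Promoter sequence is shown for the 3 neighbouring genes of this cluster because their start sites hold the same pair of motifs, with Timp1 printed for comparison; they were chosen after the matches were seen. The windows run from 250 bases before to 50 after a gene start in the RefSeq table (GRCm38.p6), 5′ to 3′ on the plus strand, with matches in capitals. The motifs searched on both strands were the AP-1 site TGANTCA, bound by Fos and Jun proteins, and the TATA box TATAAA. Windows were at hand for 32 of the 53 members, 36 in all.
Mmp13, chr9:7272264-7272563: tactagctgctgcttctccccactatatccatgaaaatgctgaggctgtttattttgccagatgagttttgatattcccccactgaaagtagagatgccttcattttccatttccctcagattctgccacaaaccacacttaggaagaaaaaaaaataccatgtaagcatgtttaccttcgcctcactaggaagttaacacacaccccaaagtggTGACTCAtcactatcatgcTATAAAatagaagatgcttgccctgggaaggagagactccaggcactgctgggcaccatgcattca
Mmp12, chr9:7347124-7347423: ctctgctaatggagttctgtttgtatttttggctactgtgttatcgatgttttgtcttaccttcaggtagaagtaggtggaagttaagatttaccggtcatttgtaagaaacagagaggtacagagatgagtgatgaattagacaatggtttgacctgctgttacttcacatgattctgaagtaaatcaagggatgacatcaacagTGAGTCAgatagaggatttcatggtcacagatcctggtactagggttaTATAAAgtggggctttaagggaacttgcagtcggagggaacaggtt
Mmp3, chr9:7445572-7445871: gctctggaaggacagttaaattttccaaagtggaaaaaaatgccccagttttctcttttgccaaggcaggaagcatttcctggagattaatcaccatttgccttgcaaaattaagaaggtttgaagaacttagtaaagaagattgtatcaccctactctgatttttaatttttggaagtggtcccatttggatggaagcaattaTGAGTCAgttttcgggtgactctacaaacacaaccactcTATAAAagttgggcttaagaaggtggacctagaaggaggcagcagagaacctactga
Timp1, chrX:20869916-20870215: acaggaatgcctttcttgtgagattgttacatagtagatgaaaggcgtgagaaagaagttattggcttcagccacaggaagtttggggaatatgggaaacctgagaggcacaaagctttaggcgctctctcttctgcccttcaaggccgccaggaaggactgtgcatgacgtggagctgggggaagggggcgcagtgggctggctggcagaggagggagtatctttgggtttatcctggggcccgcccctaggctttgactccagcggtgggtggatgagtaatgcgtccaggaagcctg
The AP-1 match starts at −35 in Mmp13, −44 in Mmp12 and −46 in Mmp3, counted from the RefSeq start. The TATAAA match follows at −16, +5 and −7, so the Mmp12 window places its start upstream of the TATA box. Mmp12 has another RefSeq window (7344147 to 7344446) with neither motif, and the Timp1 window holds no exact match to either. The Timp1 window does hold TGAGTAA, which is close to the AP-1 motif but lay outside the search. Both motifs together were found in 1.54% of 32851 windows of this length over all genes and in 3 of the 36 member windows, 8.33%. Each motif counted with or without the other, AP-1 was in 7.81% of all windows and 11.1% of member windows, and TATAAA in 13.6% and 13.9%. A match describes the letters and does not show that a factor binds there. The lack of an exact match does not show that no factor binds.

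Both of the other called MMPs lie outside the cluster. Mmp14 (chromosome 14, 54431612 to 54445364, plus strand) encodes MT1-MMP, a membrane-anchored collagenase that activates pro-MMP2. Mmp14 levels were 53.1, 44.8 and 52.2 CPM in the control libraries, 169.9, 189.8 and 90.4 CPM in the asthma libraries and 83.7, 77.6 and 65.2 CPM in the BSYQF libraries. Group means were 50 ± 4.57, 150.03 ± 52.6 and 75.5 ± 9.41 CPM (SD, n = 3), with the 3 groups each in a separate range. The log2 fold change in asthma against control was 1.58 ± 0.24, 95% interval 1.05 to 2.12 at adjusted p = 0.00817. Mmp19 (chromosome 10, 128790910 to 128800824, plus strand), a secreted enzyme of basement membrane and matrix proteins, had 24.3, 13.6 and 14.7 CPM in the control libraries, 122, 115 and 35.1 CPM in the asthma libraries and 96.3, 36.1 and 17.7 CPM in the BSYQF libraries. Its asthma libraries were all above the controls (log2 fold change 2.37 ± 0.64 at adjusted p = 0.0445), and BSYQF replicate 3 lay within the control range. That call was lost with limma voom (adjusted p = 0.0657) and without the filter on low counts (adjusted p = 0.0805). About 28.3% of the exon length of Mmp19 overlaps exons of other genes, so part of its counts cannot be assigned with certainty.

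The gelatinase gene Mmp2, a product of fibroblasts, had a log2 fold change of −0.43 ± 0.22 at adjusted p = 0.184, and −0.74 with a call as lower (adjusted p = 0.0122) without asthma replicate 3. Mmp28 encodes epilysin, an enzyme of epithelial and macrophage origin, and was named after its values were seen because it lay next to the threshold. Its levels were 31.4, 24.0 and 22.4 CPM in the control libraries, 8.26, 3.63 and 16.5 CPM in the asthma libraries and 12.4, 12.2 and 20.8 CPM in the BSYQF libraries, with all asthma libraries below all controls. The log2 fold change was −1.44 ± 0.43 at adjusted p = 0.0504 in the main test, and 5 of 7 other settings called it lower, with adjusted p of 0.00731 (DESeq2) to 0.0496 (edgeR with another scaling). Without asthma replicate 3 it was −2.13 (adjusted p = 0.00381), and it was also called without BSYQF replicate 1 or 3 (adjusted p = 0.0473 in each).

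The granulocyte enzymes followed neither the asthma label nor Mmp12. Mmp9 encodes gelatinase B, stored in neutrophil granules, and had 21.1, 63.0 and 15.1 CPM in the control libraries, 21.6, 9.81 and 17.7 CPM in the asthma libraries and 5.45, 30.8 and 69.9 CPM in the BSYQF libraries. Mmp8 had 18.7, 15.0 and 3.25 CPM in the control libraries, 18.7, 11.8 and 9.82 CPM in the asthma libraries and 3.51, 21.1 and 52.3 CPM in the BSYQF libraries. Mmp25, a membrane-type enzyme of leukocytes that was named after its values were seen, had 4.05, 5.15 and 2.77 CPM in the control libraries, 6.34, 3.50 and 5.96 CPM in the asthma libraries and 3.39, 7.09 and 14.4 CPM in the BSYQF libraries. All 3 were highest in BSYQF replicate 3 and near their lowest in BSYQF replicate 1. Log2 fold changes in asthma against control were −1.01 ± 0.80 at adjusted p = 0.399 for Mmp9, 0.13 ± 0.83 at adjusted p = 0.927 for Mmp8 and 0.41 ± 0.48 at adjusted p = 0.570 for Mmp25.

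Marker genes of cells that make these enzymes were high or low in some of the same libraries. The summed level of 8 neutrophil markers was 452, 724 and 184 CPM in control, 587, 341 and 423 CPM in asthma, and 154, 941 and 2008 CPM in BSYQF libraries, with 0 of 8 called in asthma against control. This sum was highest in BSYQF replicate 3, as were the granulocyte MMPs, and lowest in BSYQF replicate 1. Single markers differed from the sum: Csf3r and Cxcr2 were highest in control replicate 2, and Ly6g, Retnlg, Ngp and Camp were lowest in control replicate 3. The summed level of 8 macrophage markers was 382, 288 and 289 CPM in control, 891, 972 and 868 CPM in asthma, and 1038, 805 and 588 CPM in BSYQF libraries, and 7 of 8 were called higher in asthma. Asthma replicate 3 was close to the other asthma libraries in this sum, while its Mmp12 and Timp1 were not. Single markers differed from this sum too. Among asthma libraries Cd68 was lowest in replicate 3, at 43.9 CPM, as was Mmp12. Like Mmp12, Cd68 was highest of all libraries in BSYQF replicate 1, at 175.2 CPM. Csf1r and Mrc1 were also lowest in asthma replicate 3, whereas C1qb, C1qc, Ms4a7 and Adgre1 were highest there among asthma libraries. The 8 alveolar macrophage markers summed to 602, 431 and 398 CPM in control, 1689, 2705 and 799 CPM in asthma and 5022, 718 and 645 CPM in BSYQF libraries. Most of that difference was Chil3, a chitinase-like gene of activated macrophages. Without it the sums were 343 to 513 CPM in control, 436 to 571 CPM in asthma and 404 to 778 CPM in BSYQF libraries. Genes of that remainder went in opposite directions. Itgax had 30.4, 32.0 and 31.2 CPM in control, 207, 291 and 108 CPM in asthma and 342, 116 and 53.0 CPM in BSYQF libraries. Fabp4, also on the adipocyte list, had 240, 76.6 and 52.9 CPM in control and 16.8, 17.2 and 25.4 CPM in asthma libraries. Mast cell markers, 5 in all, summed to 10.6 to 14.2 CPM in control, 46.9, 141 and 14.7 CPM in asthma and 91.0, 14.9 and 15.2 CPM in BSYQF libraries, so the libraries high in Mmp12 were high here too. Of these 5 only the mast cell protease genes Mcpt1 and Mcpt2 were called higher in asthma. Cpa3 had 5.24, 6.32 and 6.01 CPM in control, 4.70, 6.86 and 2.69 CPM in asthma and 9.69, 1.16 and 5.46 CPM in BSYQF libraries. Cma1 in asthma replicate 1, at 5.60 CPM, was close to control replicate 2, at 5.56 CPM. In whole lung, more cells of a type and more RNA per cell cannot be told apart, and the part of cell numbers in these results was not tested.

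**Figure D3:**
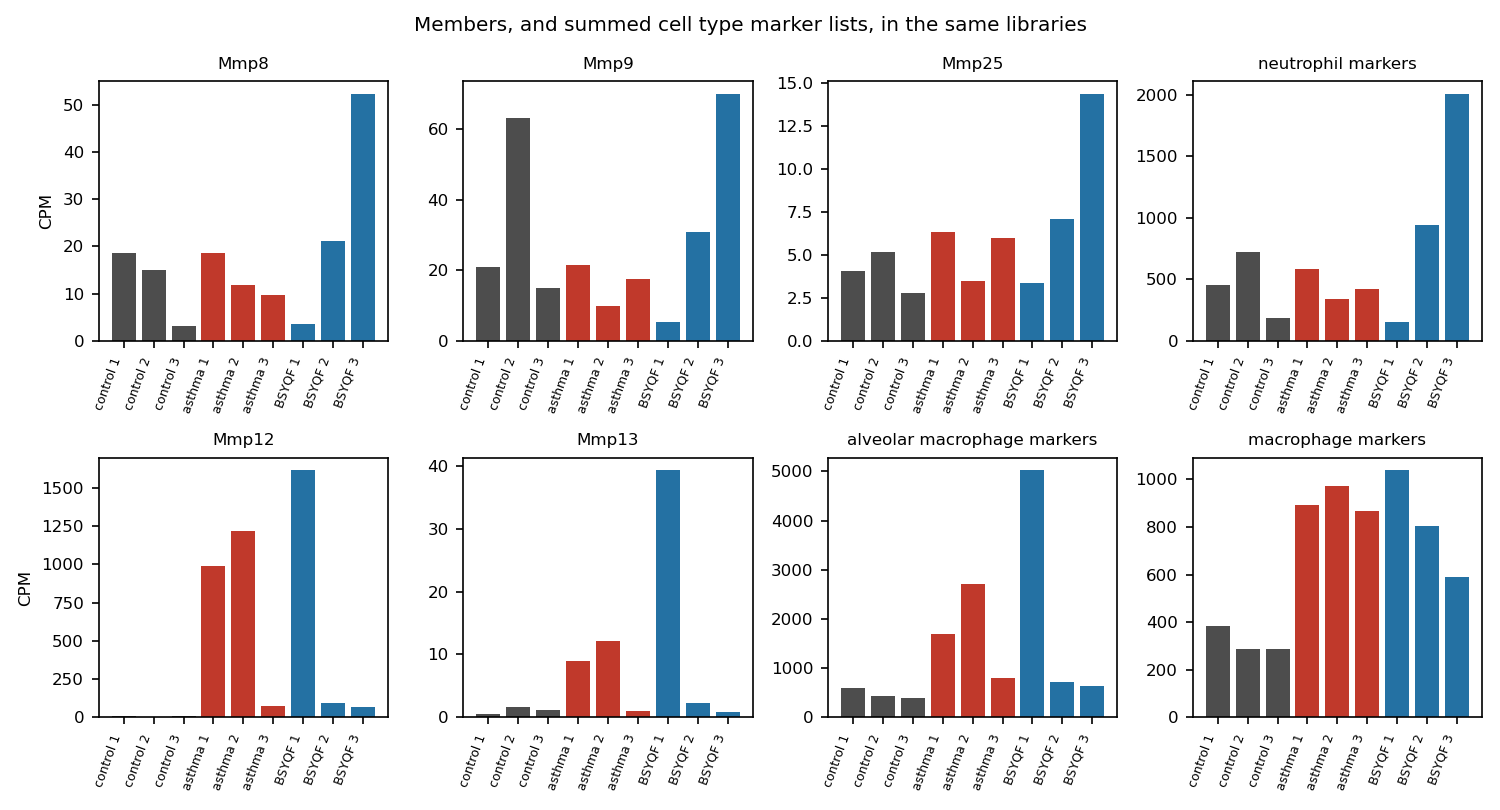
Level in CPM per library of Mmp8, Mmp9 and Mmp25 beside the sum of 8 neutrophil markers, and of Mmp12 and Mmp13 beside the sums of 8 alveolar macrophage and 8 macrophage markers; each bar is 1 library and starts at 0. The granulocyte enzymes and the neutrophil sum (2008 CPM) are highest in BSYQF replicate 3, and Mmp12 (1615 CPM) and the alveolar macrophage sum (5022 CPM) in BSYQF replicate 1.

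Among the ADAMs, Adam8 and Adam15 rose and the main sheddases did not pass the test. Adam8 (chromosome 7, 139978932 to 139992562, minus strand) encodes a protease of myeloid cells. Its levels were 22.96, 24.3 and 18.8 CPM in the control libraries, 178, 168 and 38.2 CPM in the asthma libraries and 84.9, 53.0 and 52.0 CPM in the BSYQF libraries. Every asthma library was above every control, asthma replicate 3 least so, and the log2 fold change was 2.54 ± 0.49, 95% interval 1.46 to 3.62 at adjusted p = 0.0161. Adam15 (chromosome 3, 89338542 to 89349996, minus strand), a widely expressed member that also binds integrins, had 101.96, 101 and 98.2 CPM in the control libraries, 161, 152.5 and 131 CPM in the asthma libraries and 139.9, 111 and 94.6 CPM in the BSYQF libraries. This was a small increase over closely spaced controls (log2 fold change 0.56 ± 0.16 at adjusted p = 0.0454), which limma voom put at adjusted p = 0.0503, and 20.6% of its exon length overlaps an antisense gene.

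Adam10, the sheddase of Notch receptors and E-cadherin, had a log2 fold change of −0.17 ± 0.13 at adjusted p = 0.387. Adam17, which releases tumour necrosis factor, had 0.16 ± 0.14 at adjusted p = 0.447. Adam33, a gene linked to asthma susceptibility in people and expressed in mesenchymal cells, had levels of 9.46, 6.90 and 12.7 CPM in the control libraries, 5.32, 9.55 and 6.63 CPM in the asthma libraries and 9.75, 5.58 and 6.25 CPM in the BSYQF libraries. The Adam33 libraries of the groups overlapped, and its log2 fold change was −0.44 ± 0.32 at adjusted p = 0.357. Over the 16 ADAMs log2 fold changes ran from −1.43 to 2.54 with a median of −0.15, and 2 had an unadjusted p under 0.05, which are the same 2 that were called.

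The ADAMTS family held 1 increase and 1 decrease. Adamts4 (chromosome 1, 171250421 to 171260637, plus strand), an aggrecanase that cuts the proteoglycans aggrecan and versican, was near the detection limit in control lung, with raw counts of 7, 2 and 9. Its levels were 0.378, 0.117 and 0.479 CPM in the control libraries, 6.11, 4.57 and 1.61 CPM in the asthma libraries and 1.15, 1.98 and 2.34 CPM in the BSYQF libraries. All asthma and BSYQF libraries lay above all controls, and the log2 fold change in asthma was 3.61 ± 0.65, 95% interval 2.17 to 5.05 at adjusted p = 0.0110. Adamts10 (chromosome 17, 33524204 to 33553782, plus strand), which binds fibrillin microfibrils, had 155, 164 and 205 CPM in the control libraries, 113, 114 and 113 CPM in the asthma libraries and 142, 102.31 and 111 CPM in the BSYQF libraries. The 3 asthma libraries were nearly equal and all below the controls, with a log2 fold change of −0.62 ± 0.16 at adjusted p = 0.0364. Markers of tissue that can accompany a lung sample were also lower in asthma. The summed cardiac muscle markers were 375 to 911 CPM in control and 123 to 228 CPM in asthma libraries, with 6 of 7 called lower, and all 6 adipocyte markers were called lower. Whether these tissues contributed to the lower members was not tested.

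Other proteoglycan-cutting members are given only where they were on a list of well-studied members. Adamts1 had a log2 fold change of −0.65 ± 0.28 at adjusted p = 0.126 (called without BSYQF replicate 1, adjusted p = 0.0323, and in a fit of the 2 groups alone, 0.0497). Adamts5 had −0.15 ± 0.22 at adjusted p = 0.656, and Adamts9 −0.25 ± 0.22 at adjusted p = 0.450. Over the 17 ADAMTSs 13 lay below 0 and 4 above, with a median of −0.28. Of the 17, 6 had all asthma libraries below all controls (35.3%, beside 18.4% of all genes tested). Over all 53 members the counts were 12 without overlap and lower (22.6%) and 9 without overlap and higher (17%, beside 22% of all genes). Adamts20 had 1.84, 0.936 and 1.76 CPM in the control libraries, 3.85, 3.63 and 3.27 CPM in the asthma libraries and 2.36, 0.930 and 1.72 CPM in the BSYQF libraries, with a log2 fold change of 1.24 ± 0.44 at adjusted p = 0.0786 (0.0342 by DESeq2). Adamts19 had raw counts of 23, 8 and 6 in the control libraries, 0, 0 and 4 in the asthma libraries and 10, 14 and 15 in the BSYQF libraries. Mmp16, a membrane-type MMP, had raw counts of 6, 14 and 11 in the control libraries, 0, 0 and 4 in the asthma libraries and 4, 10 and 20 in the BSYQF libraries. Both genes were at 0 in asthma replicates 1 and 2, and neither was called (adjusted p = 0.0637 and 0.0876). Without asthma replicate 3, and by DESeq2, both were called lower (adjusted p = 0.0176 and 0.0262, and 0.0245 and 0.0493); so few counts give no reliable fold.

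**Figure D4:**
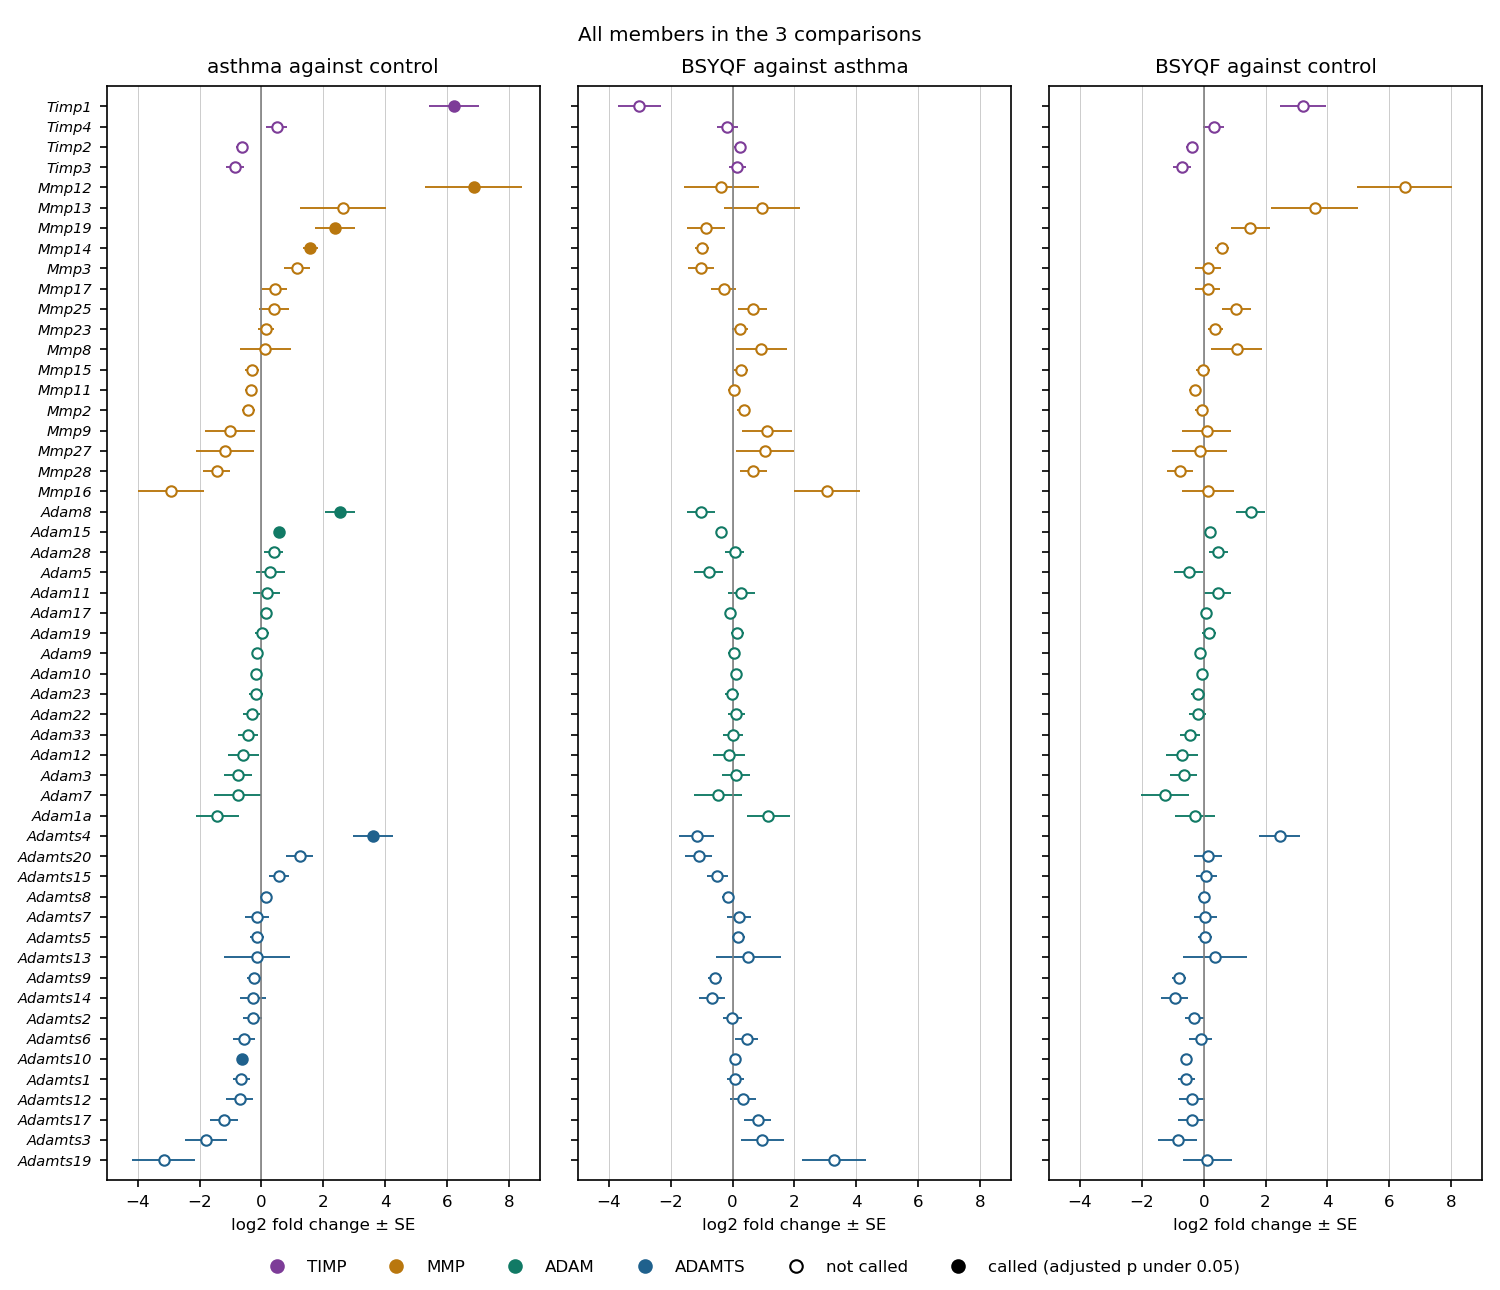
Log2 fold change ± SE of all 53 members in the 3 comparisons, grouped by family, with filled points where the adjusted p was under 0.05. In asthma against control 8 points are filled, and in both BSYQF comparisons none.

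Genes that regulate these enzymes were read from a list of 38, of which 34 were tested in asthma against control. Of these 6 rose and 4 fell, where 8.23% of all genes were called higher and 4.45% lower, with a median log2 fold change of 0.04 beside 0.02 over all genes. Reck, which encodes a membrane-anchored inhibitor of several MMPs, fell (−1.27 ± 0.32 at adjusted p = 0.0347). The genes that rose include Lcn2, whose product binds MMP9 (4.0 ± 0.41 at adjusted p = 0.00238), Cd44, a hyaluronan receptor that can dock MMP9 at the cell surface (0.97 ± 0.15 at adjusted p = 0.00873), and Rhbdf2, which encodes iRhom2, needed for ADAM17 maturation (0.75 ± 0.21 at adjusted p = 0.0423). Plaur, the urokinase receptor gene, Adamdec1, an ADAM-like gene, and Thbs1, encoding thrombospondin 1, also rose, at 0.79, 1.19 and 1.47. The tolloid protease gene Tll1, the neprilysin gene Mme and the ADAMTS-like gene Papln fell by 2.02, 1.15 and 3.50 on the log2 scale. Leaving out single libraries ended the calls of all of these but Cd44 and Lcn2 in at least 1 of 9 fits, with adjusted p reaching 0.0671 (Mme) to 0.168 (Rhbdf2).

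Among substrates, 29 of 30 listed shedding substrates of ADAMs were tested and 3 rose in asthma: the TNF receptor gene Tnfrsf1b (0.69 ± 0.19 at adjusted p = 0.0406), the membrane chemokine gene Cxcl16 (1.22 ± 0.25 at adjusted p = 0.0181) and the adhesion gene Epcam (0.57 ± 0.14 at adjusted p = 0.0299). None fell, the median was −0.05, and the shares of all genes called are those given for the regulators. Leaving out 1 library at a time took the adjusted p of these 3 to as much as 0.158. Of 30 listed matrix substrates 26 were tested, 3 rose (Vcan, Tnc and Col3a1) and 2 fell, beside the same shares of all genes, with a median of −0.32 beside 0.02 over all genes. The decreases were in Nid1, a basement membrane linker (−0.71 ± 0.21 at adjusted p = 0.0475), and Fmod, which encodes the collagen-binding fibromodulin (−1.20 ± 0.34 at adjusted p = 0.0450). With 1 library left out at a time, Vcan held in 6 of 9 fits, Tnc in 4 and Col3a1, Nid1 and Fmod in 3 each, with adjusted p reaching 0.0695 for Vcan, 0.0971 for Tnc, 0.157 for Col3a1 and 0.150 for Nid1 and Fmod. Col3a1 and Nid1 also missed the threshold in a fit of the 2 groups alone (adjusted p = 0.0515 and 0.0520), and Tnc with limma voom (adjusted p = 0.0502). The fibroblast marker list shares Col1a1, Col1a2, Dcn and Lum with this one. Fibroblast markers summed to 2110 to 2335 CPM in control and 1228 to 1814 CPM in asthma libraries, with 1 of 8 called lower. The shared collagen genes went against this sum. Col1a1 had 207, 179 and 215 CPM in control and 390, 237 and 294 CPM in asthma libraries. All asthma libraries were above all controls for Col1a1 and Col1a2, and below them for the other markers of the list. The part of fibroblasts in these values was not tested.

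In BSYQF against asthma none of the 53 members was called by edgeR's quasi-likelihood test, where 0.00678% of all genes, a single gene, were called. At an unadjusted p under 0.05 there were 8 members (15.1%, beside 7.94% of all genes). DESeq2 called 2 members, Timp1 and Mmp14, and limma voom called 0. Over all 14739 genes DESeq2 called 123 and limma voom 0. The median log2 fold change of the members was 0.09 beside −0.00 over all genes. All 3 BSYQF libraries lay above all asthma libraries for 2 members and below for 4, beside 4.99% and 4.76% of all genes.

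The member lowest relative to asthma was Timp1, whose BSYQF libraries, listed above, were all below the lowest asthma library. Its log2 fold change was −3.02 ± 0.69 (SE, n = 3 per group), 95% interval −4.57 to −1.47 at adjusted p = 0.321. Mmp14 likewise had all BSYQF libraries below all asthma libraries (−0.99 ± 0.24, 95% interval −1.51 to −0.47 at adjusted p = 0.321). Adjusted p by DESeq2 was 0.0155 for Timp1 and 0.0204 for Mmp14. Without asthma replicate 3, edgeR called 3 members lower in BSYQF: Timp1 (−3.51, adjusted p = 0.0185), Mmp14 (−1.25, adjusted p = 0.0140) and Adam8 (−1.45, adjusted p = 0.0247). That fit called 114 of all 14941 genes. Leaving out any other library called 0 members and at most 1 gene.

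The remaining members with the smallest p-values were Adamts19 and Mmp16, with BSYQF counts overlapping those of the controls (adjusted p = 0.543 and 0.579), and Adamts20 (−1.10 ± 0.44 at adjusted p = 0.609). Adam8 had −1.02 ± 0.46 at adjusted p = 0.622, Adamts4 −1.16 ± 0.56 at adjusted p = 0.622, Mmp19 −0.86 ± 0.61 at adjusted p = 0.667, Adam15 −0.36 ± 0.16 at adjusted p = 0.622 and Mmp3 −1.02 ± 0.43 at adjusted p = 0.616. Mmp12 had −0.36 ± 1.20, 95% interval −3.09 to 2.36 at adjusted p = 0.940, an interval that leaves both a large decrease and a large increase possible. Mmp12 in BSYQF replicate 1 was the highest of all 9 libraries, while BSYQF replicates 2 and 3 were near asthma replicate 3. The ratio of Mmp12 to Timp1 level per kilobase was 4.22 in BSYQF replicate 1 and 0.156 to 0.490 in the other 8 libraries. Adamts10 (0.06 ± 0.16 at adjusted p = 0.915), Timp2 (0.24 ± 0.19 at adjusted p = 0.697), Timp3 (0.15 ± 0.28 at adjusted p = 0.871) and Timp4 (−0.17 ± 0.35 at adjusted p = 0.886) had the estimates nearest 0 among the inhibitors and called members. The granulocyte genes had wide errors, with Mmp9 at 1.11 ± 0.80 at adjusted p = 0.669, Mmp8 at 0.94 ± 0.82 at adjusted p = 0.724 and Mmp25 at 0.65 ± 0.47 at adjusted p = 0.667. Without BSYQF replicate 3 the estimate for Mmp8 was −0.12. Mmp13 had 0.95 ± 1.24 at adjusted p = 0.815, and without BSYQF replicate 1 its estimate was −2.24.

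Against control, again none of the 53 members was called in BSYQF lungs, where 1.67% of all genes were called. Here 12 members had an unadjusted p under 0.05 (22.6%, beside 15.8% of all genes). DESeq2 called 6 members (Timp1, Mmp12, Adam8, Adamts4, Adamts9 and Adamts10) and limma voom 0. Over all 14739 genes DESeq2 called 826 and limma voom 91. This comparison shares its control libraries with asthma against control and its BSYQF libraries with the one above, so the values stand side by side and are not separate evidence. Timp1 had a log2 fold change of 3.21 ± 0.73, 95% interval 1.56 to 4.86 at adjusted p = 0.0673, Mmp12 6.50 ± 1.55 at adjusted p = 0.0833, Adamts4 2.45 ± 0.65 at adjusted p = 0.0920, Adam8 1.52 ± 0.47 at adjusted p = 0.159 and Adamts10 −0.56 ± 0.16 at adjusted p = 0.121. Adamts9 had −0.81 ± 0.22 at adjusted p = 0.106, with all BSYQF libraries below all controls. The remaining members called in asthma were Mmp19 (1.51 ± 0.63 at adjusted p = 0.281), Mmp14 (0.59 ± 0.24 at adjusted p = 0.258) and Adam15 (0.20 ± 0.16 at adjusted p = 0.567). Mmp13 had 3.58 ± 1.41 at adjusted p = 0.266, which was 0.39 without BSYQF replicate 1. Among the other inhibitors Timp2 had −0.37 ± 0.19 at adjusted p = 0.382, Timp3 −0.70 ± 0.28 at adjusted p = 0.256 and Timp4 0.32 ± 0.35 at adjusted p = 0.680. The BSYQF mean lay between the control and asthma means for 33 of the 53 members, beside 59.5% of all genes tested. It did so for the 8 members called in asthma, beside 88.9% of all genes called there; choosing genes by a large difference favours this order. A fit of the 2 groups alone called Timp1 (adjusted p = 0.0111) and Adam8 (adjusted p = 0.0127), among 389 genes called. Without asthma replicate 3 Timp1, Adam8, Adamts4 and Mmp14 were called (adjusted p = 0.00494, 0.00391, 0.0361 and 0.0450), among 563 genes called. Without BSYQF replicate 3 Mmp12 was called (adjusted p = 0.0481), while without BSYQF replicate 1 its log2 fold change was 3.62 (adjusted p = 0.127).

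On the lists of regulators and substrates, no gene was called in BSYQF against asthma, with medians of −0.10 for regulators, 0.00 for shedding substrates and 0.12 for matrix substrates beside −0.00 over all genes. Against control, Lcn2 was the single called gene of the 3 lists (3.06 ± 0.39 at adjusted p = 0.00926), and without 1 library at a time its adjusted p reached 0.0668.

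Of the 8 calls in asthma against control, those of Timp1 and Mmp14 held in each of the 9 fits that left out 1 library. Adamts4 was lost without control replicate 2 or asthma replicate 1 (adjusted p = 0.0528 and 0.0607). Adam8 and Mmp12 were lost without any 1 of the control libraries or asthma replicates 1 or 2, with adjusted p of 0.0584 to 0.0749 and 0.0928 to 0.136. Mmp19, Adam15 and Adamts10 were lost in those fits and without BSYQF replicate 2, with adjusted p of 0.0554 to 0.165, 0.0711 to 0.153 and 0.0501 to 0.109. Without asthma replicate 3 the count of called members was 16 and without BSYQF replicate 1 it was 13, in place of 8. Over all genes these fits called 4262 of 14941 and 2646 of 14912, in place of 1869 of 14739. The count of called members was 2 to 5 without any 1 of the control libraries, asthma replicate 1 or 2, or BSYQF replicate 2. Those fits called 171 to 944 of all genes, so the calls changed over all genes and not only over the members. In the authors' deposited table of asthma against control, limited to genes with a p under 0.05 and a change of at least 2-fold, 14 members are listed, 9 higher and 5 lower, and 11 have an adjusted p under 0.05. The authors' deposited tables list 7 members for BSYQF against asthma, 0 with an adjusted p under 0.05 (Timp1 has 0.0970), and 6 for BSYQF against control, 3 with an adjusted p under 0.05.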

How the data were processed

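Lung RNA was isolated with Trizol, and 3 µg per library went into NEBNext Ultra libraries, per the labels' protocols. The submitters' processing notes list STAR and HTSeq beside FastQC, cutadapt and DESeq2, with mm10 as the build, while the sources used here give no versions, annotation or strand use. As deposited by the authors, the main file holds unnormalized counts per gene and library, the input of every test. The authors also deposited tables with log2 fold changes and p-values per comparison, quoted only where named; 36 further per-library columns in them were not used.

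Counts were filtered with filterByExpr, TMM-scaled (factors 0.914 to 1.07) and analysed by edgeR 4.0.16 under R 4.3.3, using robust glmQLFit and glmQLFTest over 3 groups without a block. An SE is the log2 fold change over the square root of F. Alternatives used DESeq2 1.42.0, limma 3.58.1 voom, other scaling, filter and dispersion settings, a replicate block, 2-group fits and omission of each library. The edgeR fit was also run on simulated counts with the same relative spread for every gene and no odd library. These settings differ from the present libraries, so that run does not show how the fit performs on them. Positions and exon lengths are from GENCODE vM21. Exons of 16 members overlap another gene.

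Members, gene lists, marker lists and tests were chosen with earlier results of these data known. The text names members called in any comparison, every TIMP, the 5 smallest p-values in BSYQF against asthma and a list of well-studied members; Mmp25, Mmp28 and single genes of the other lists were named after their values were seen. The CPM values given for 3 counts reflect depth only. The 95% intervals come from the quasi-likelihood fit and include the spread between libraries.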

Additional observations from a re-analysis of the deposited data

How the results depend on the processing

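With filterByExpr as the only filter the same count of 53 members was chosen. The count of members called in asthma against control was 8, and 6 to 9 under 6 other settings. Over all genes these counts were 1869, and 1369 to 1986. Limma voom lost Mmp12, Mmp19 and Adam15 and gained Mmp28, and the fit without a filter lost Mmp12 and Mmp19. The count was 16 with DESeq2 (9 higher, 7 lower), which called 3315 of all 14739 genes. With 1 library left out the count of members ranged from 2 to 16, and that of all genes from 171 to 4262. BSYQF against asthma gave 0 members called, 2 with DESeq2 and 0 to 3 with 1 library left out. Over all genes these counts were 1, 123 and 0 to 114. BSYQF against control gave 0 members called, 6 with DESeq2, 2 in the fit of the 2 groups alone and 0 to 4 with 1 library left out. Over all genes they were 246, 826, 389 and 9 to 563. With the replicate number as a block, counts of members were 7, 0 and 1, and of all genes 1469, 15 and 237. The first comparison lost Adam15 and Adamts10 (adjusted p = 0.0501 and 0.0539) and gained Mmp28 (0.0274). The member called in the last was Timp1 (0.0496). On the gene lists the block lost Rhbdf2, Thbs1, Col3a1, Nid1 and Fmod (adjusted p = 0.0525, 0.0568, 0.0519, 0.0520 and 0.0579), and voom lost Rhbdf2 (0.0514). Deviations of log2 CPM from the group mean were correlated between libraries of different groups. Same-numbered libraries gave −0.259 to 0.339 and different-numbered libraries −0.428 to 0.368, so the numbers were not read as pairs.

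Among the 79 gene results of the text, any change of sign, however small, was counted, and all such changes are given here; none was in a called result. Mmp13 in BSYQF against asthma was −0.072 with limma voom, in place of 0.95, and −2.24 to 1.51 with 1 library left out. With 1 library left out, log2 fold changes ran from −0.33 to 0.56 for Mmp8 in asthma against control. In BSYQF against asthma they ran from −3.23 to 0.17 for Mmp12, −0.028 to 0.48 for Timp3, −0.076 to 0.16 for Adamts10, −0.45 to 0.10 for Timp4, −0.12 to 1.46 for Mmp8 and −0.011 to 1.04 for Mmp25. Over these 79 results under the 7 other settings, 510 values kept direction and call, 23 gained a call, 16 lost one and 1 changed direction. Adamts19 and Mmp16 did not pass the filter in every fit of 2 groups. At this depth Adamts4, Adamts19 and Mmp16 rest on few counts.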
